A study of Mus musculus with 4 samples.

Results

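The 53 genes described here make ribosomes or transcribe ribosomal RNA, and they were taken by name from a table of 46095 mouse gene symbols. They cover RNA polymerase I and its factors (9 genes), nucleolar chaperones and regulators (6), proteins of small nucleolar ribonucleoproteins, or snoRNPs (8), and assembly factors of the small (14) and the large (16) ribosomal subunit. Their mRNA was compared between the stomachs of 2 WT and 2 *c-Myc* transgenic mice at 12 weeks of age, all on a C57BL/6 background, by RNA sequencing of bulk tissue. The transgenic mice, *Atp4b-cre;MycOE* in the labels and MYC-KI in their titles, carry 1 copy of a Cre-dependent human *c-Myc* allele, which Cre expressed from the *Atp4b* promoter switches on in the parietal cell lineage. The WT mice were littermates that carry the same floxed allele without Cre. In the MYC-KI stomachs 43 of the 53 genes rose and 0 fell, where 5.65% of all tested genes rose and 5.08% fell, and the summed normalised level of the 53 was 2.02 times that of WT.

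Ribosome biogenesis starts in the nucleolus, where RNA polymerase I transcribes the ribosomal DNA repeats into a long precursor. snoRNPs guide the methylation and pseudouridylation of this precursor, and large sets of assembly factors, helicases and nucleases fold and cut it while ribosomal proteins are added. MYC is well known to raise the transcription of genes at each of these steps, and nucleolar size and number have long been read by pathologists as a mark of growing and dividing cells. In the stomach, parietal and chief cells secrete acid and pepsinogen, and the dividing cells lie in the neck of the gland.

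In the deposited table the gene names and the MYC-KI counts stand in different sort orders, so the MYC-KI counts were first assigned in row order to the names sorted by character code, as the rule for choosing these genes specifies. The genotypes' mean log2(count + 1) correlated over the 53 genes at a Pearson's r of -0.045 as deposited and of 0.922 after this step, where genes are not replicates. Around each of the 53, r between the genotypes over the 60 neighbouring names lay between 0.958 and 0.992. As deposited, 22 of the 53 genes would be called higher and 17 lower, beside 42.7% and 41.5% of all genes tested in that order. *Ebna1bp2*, a large subunit factor, is the 1 gene of the 53 whose row does not move between the orders. Its WT counts were 1237 and 1155, and its MYC-KI counts were 2165 and 2794. Its log2 fold change was 0.69 in the re-sorted table and 0.65 (adjusted p = 0.0329 by edgeR) in a fit of the rows that do not move.

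The samples held between 30260305 and 41463647 counts, of which the 53 genes took 0.218% and 0.221% in WT and 0.549% and 0.487% in MYC-KI mice. Counts of mouse *Myc* were 1062 and 759 in WT, and 735 and 1091 in MYC-KI mice (log2 fold change -0.35, adjusted p = 0.163 by edgeR). The human transgene has no row of its own, so these counts do not check the labels. WT replicate 2 had 17846 counts of *Xist* and 5 of the Y-linked *Ddx3y*, against 85 to 201 and 1861 to 2623 in the other 3 samples. Of the cell type markers, 5 of 5 parietal, 2 of 3 chief cell, 4 of 4 surface mucous and 2 of 5 leukocyte markers were called lower in MYC-KI mice, while edgeR and DESeq2 called 0 of 4 smooth muscle, 0 of 2 mucous neck and 0 of 5 squamous markers, and 0 of these had an unadjusted p-value under 0.05. The summed level of 5 parietal markers was 12190 and 12250 normalised CPM (a gene's counts relative to the library total, scaled between samples by TMM) in WT and 281.2 and 302.8 in MYC-KI mice, and that of 3 chief cell markers was 81070 and 76770 against 1093 and 1455. The parietal markers include *Gif*, which was planned as a marker of chief cells too, with a mean of 1727 normalised CPM in WT and 79.5 in MYC-KI mice. The chief cell sum was mostly *Pgc*, and *Pga5* had a log2 fold change of 0.016 (adjusted p = 0.975 by edgeR). *Atp4b*, whose promoter drives Cre, fell from 87583 and 69469 counts to 1301 and 2310. Of 9 proliferation markers 5 rose and 0 fell, with sums of 529.1 and 480.6 normalised CPM in WT and 790.2 and 726.5 in MYC-KI mice. In bulk tissue a change in the number of cells of a type and a change in RNA per cell cannot be told apart, and the part of these markers in the values below was not tested.

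**Figure D1:**
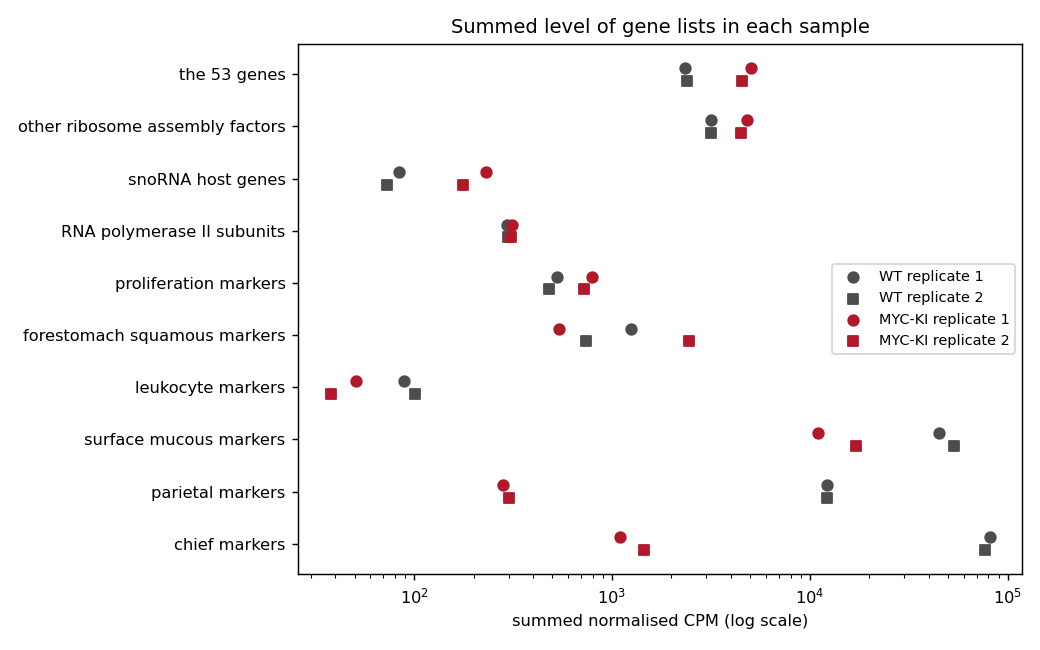
Summed normalised CPM (x axis, log scale) of the 53 genes, of 3 related gene lists and of 6 marker lists, with 1 point per sample (grey, WT; red, MYC-KI; circles, replicate 1; squares, replicate 2). The 53 genes sum to 2352 and 2395 in WT and to 5073 and 4525 in MYC-KI mice, while RNA polymerase II subunits stay between 294.0 and 310.9 and parietal and chief cell markers lie far lower in MYC-KI mice.

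Genes were tested with edgeR's quasi-likelihood test over the whole table, and calls needed both an adjusted p-value below 0.05 and a change of more than 1.5 times in either direction. Of 17643 tested genes, 5.65% were called higher and 5.08% lower in MYC-KI mice. All 53 genes passed the filter on low counts, and 43 (81.1%) were called higher. None was called lower by edgeR or by DESeq2, which called 9.38% of the genes it tested lower, and 0 were lower at an unadjusted p-value under 0.05. The median log2 fold change of the 53 was 0.98, against 0.012 over all tested genes. In all 53 both MYC-KI samples lay above both WT samples, which was so for 33.3% of the tested genes. In 52 of the 53 the log2 fold change also exceeded the difference between replicates of either genotype. The share of all tested genes for which this holds was not computed, so this count has no background to be read against. DESeq2 called 45 of the 53 higher, among them all 43, and 8.13% of the genes it tested.

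The calls rest on 2 samples per genotype. In edgeR fits without WT replicate 1 or without WT replicate 2, 0 of the 53 genes and 0 genes of the whole table were called. At an unadjusted p-value under 0.05, 45 and 46 of the 53 were higher in these fits, beside 3554 and 3410 genes of the whole table in either direction. DESeq2 called 31 and 32 of the 53 higher, beside 545 and 525 genes higher and 675 and 524 lower in the whole table. Without MYC-KI replicate 1 edgeR called 35 of the 53 higher, beside 781 genes higher and 832 lower in the whole table. Without MYC-KI replicate 2 it called 42 higher, beside 1064 genes higher and 1406 lower. The median log2 fold change of the 53 stayed between 0.87 and 1.10 in these 4 fits, and all 53 values stayed above 0.

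**Figure D2:**
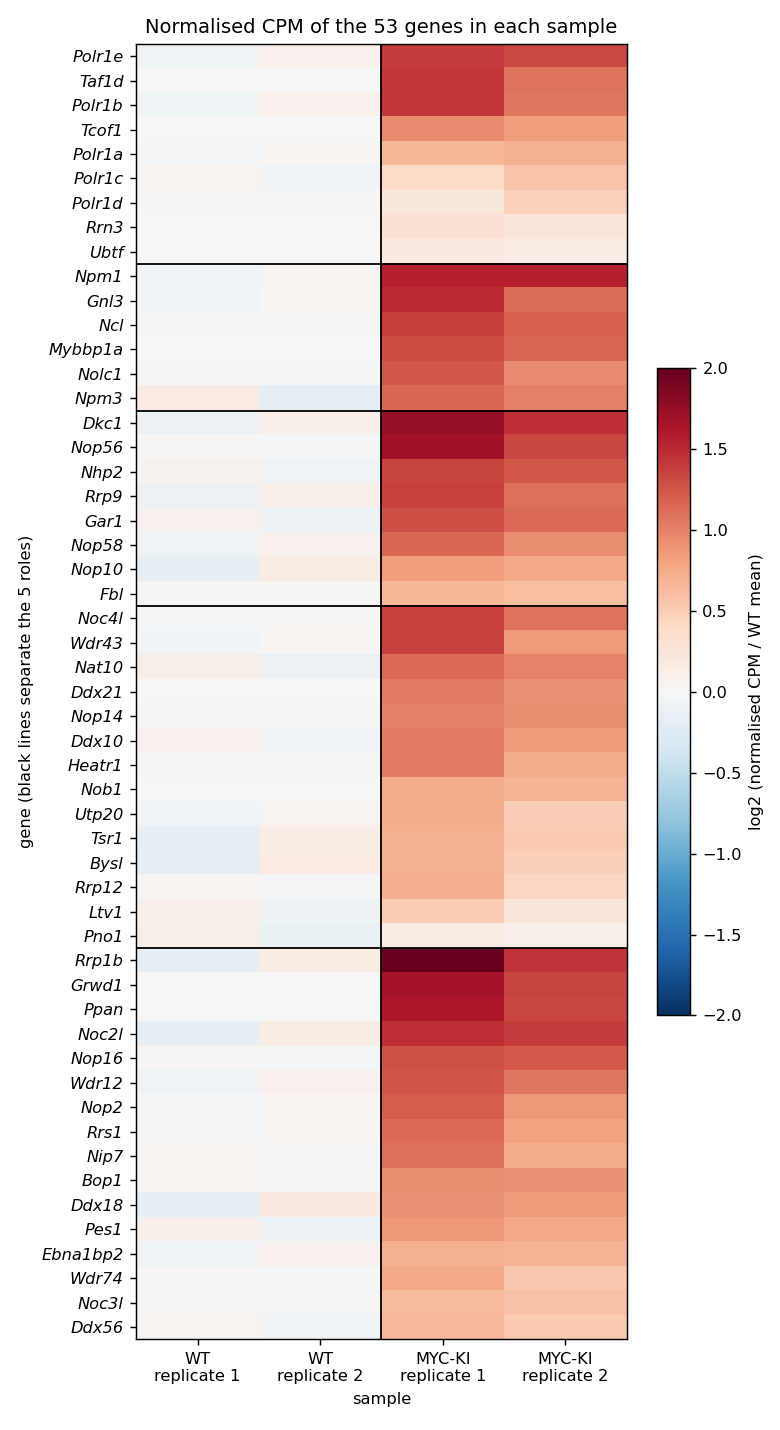
Normalised CPM of each of the 53 genes (y axis, grouped by role) in each sample (x axis), as log2 of the ratio to the WT mean. All 53 rows lie above the WT mean in both MYC-KI samples, though only slightly, and so with faint colour, for genes such as *Pno1* and *Ubtf*. The value is higher in MYC-KI replicate 1 than in replicate 2 for 50 of them.

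The MYC-KI replicates were less alike than the WT replicates. The median absolute log2 difference between replicates over the 53 genes was 0.093 in WT and 0.191 in MYC-KI mice, with the largest values for *Ddx18* in WT (0.38) and *Rrp1b* in MYC-KI mice (0.64). MYC-KI replicate 1 was the higher one for 50 of the 53 genes. Markers of squamous forestomach epithelium summed to 537.7 normalised CPM in that replicate and to 2464 in replicate 2, against 1243 and 741.7 in WT, and smooth muscle markers to 1873 and 4033, against 5887 and 3729. Surface mucous markers summed to 10960 in MYC-KI replicate 1 and 17190 in replicate 2, against 44890 and 53560 in WT. Mucous neck markers were higher in MYC-KI replicate 1, as the 53 genes were, with 19710 and 8667, against 9863 and 12190 in WT. The part of these marker lists in the difference between the MYC-KI replicates was not tested.

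MYC and its partner MAX bind the E-box letters CACGTG, so the promoters of these genes were read in RefSeq (GRCm38.p6, the assembly of the build mm10 named in the submitters' processing notes). A promoter was the 250 bases before and the 50 bases after a gene's start, and 47 of the 53 genes had an entry. CACGTG, which reads the same on both strands, was in the promoter of 10 of the 47 (21.3%), in 22.2% of the other assembly factors with an entry, in 15.8% of all genes called higher and in 10.8% of all tested genes with one. Counted over promoter windows, since a gene can have several, the shares were 17.9%, 21.8%, 13.8% and 9.07%. The related letters CACGCG, on either strand and with overlaps counted, were in 36.2% of the 47 genes, 31.9% of the other assembly factors, 21.1% of all genes called higher and 17.9% of all tested genes with an entry. Of the 11 matches to CACGTG, 8 lay after the start. The 10 genes with the letters had a median log2 fold change of 0.72 and 6 calls, and the 37 without them had a median of 1.06 and 32 calls. A match is a run of letters and not a bound site.

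The sites below, 5′ to 3′ on the strand of the gene with the match in capitals, are those of the 4 genes with a match and the highest log2 fold change. The 2 matches of *Rrn3*, chosen after its values were seen, are printed because this gene holds more matches than the others and did not pass the test. The match starts at base 35 after the start for *Grwd1* (chr7:45830740-45830767, minus strand), at base 41 for *Mybbp1a* (chr11:72441355-72441376, plus strand) and at base 18 for *Wdr43* (chr17:71616220-71616249, plus strand). It starts at base -60 from the start for *Nop2* (chr6:125131763-125131882, plus strand, printed to the last base before the start). In *Rrn3* the matches start at bases -215 and -48 (chr16:13780472-13780501 and chr16:13780639-13780668, plus strand).
Grwd1: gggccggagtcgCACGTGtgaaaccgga
Mybbp1a: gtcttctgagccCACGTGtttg
Wdr43: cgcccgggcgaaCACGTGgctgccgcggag
Nop2: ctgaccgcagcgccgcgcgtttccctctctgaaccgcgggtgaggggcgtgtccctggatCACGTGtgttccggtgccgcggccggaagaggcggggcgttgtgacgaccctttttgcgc
Rrn3, first match: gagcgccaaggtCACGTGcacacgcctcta
Rrn3, second match: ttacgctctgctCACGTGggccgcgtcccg

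The first step is transcription by RNA polymerase I. Of its 9 genes 5 rose, with a median log2 fold change of 0.69 and the lowest summed ratio of the roles, 1.46 times WT. *Polr1e*, a subunit that takes part in initiation, rose most. It had 8.19 and 9.28 normalised CPM in WT (275 and 259 counts) and 23.1 and 21.7 in MYC-KI mice (782 and 970 counts), 2.56 times the WT mean (log2 fold change 1.36, standard error 0.15, adjusted p = 0.0212 by edgeR). *Taf1d*, a component of the promoter selectivity factor SL1, had 16.2 and 16.2 normalised CPM in WT (542 and 453 counts) and 43.1 and 34.5 in MYC-KI mice (1460 and 1539 counts), or 16.2 ± 0.062 and 38.8 ± 6.08 (mean ± SD, n = 2 samples per genotype). Its log2 fold change was 1.26 (standard error 0.15, adjusted p = 0.0234 by edgeR). The catalytic core is formed by the products of *Polr1a* and *Polr1b*, both of which rose. *Polr1b* had 27.4 and 30.8 normalised CPM in WT (918 and 860 counts) and 77.6 and 60.6 in MYC-KI mice (2631 and 2709 counts), or 1.25 as log2 fold change (standard error 0.16, adjusted p = 0.0249 by edgeR). *Polr1a* had 46.3 and 48.8 in WT (1552 and 1360 counts) and 75.4 and 78.1 in MYC-KI mice (2558 and 3490 counts), or 0.69 as log2 fold change (standard error 0.08, adjusted p = 0.0216 by edgeR). The 95% interval of the log2 fold change was 0.83 to 1.67 for *Polr1b* and 0.48 to 0.90 for *Polr1a*, and the difference between these genes was not tested. *Tcof1* encodes treacle, which links ribosomal DNA transcription to precursor methylation and is mutated in Treacher Collins syndrome. It had 38.1 and 37.7 normalised CPM in WT (1279 and 1051 counts) and 72.6 and 67.5 in MYC-KI mice (2463 and 3013 counts), or 0.89 as log2 fold change (standard error 0.08, adjusted p = 0.0190 by edgeR).

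The other 4 polymerase I genes did not pass. *Ubtf*, the factor that binds ribosomal DNA along its length and keeps it open, had 126.1 and 127.9 normalised CPM in WT (4233 and 3567 counts) and 143.9 and 140.1 in MYC-KI mice (4881 and 6260 counts). This is a log2 fold change of 0.16, with a 95% interval of -0.039 to 0.36 (standard error 0.07, adjusted p = 0.212 by edgeR). *Rrn3*, the growth-regulated factor that brings the polymerase to the promoter, had 59.1 and 58.0 normalised CPM in WT (1982 and 1618 counts) and 72.5 and 69.4 in MYC-KI mice (2460 and 3102 counts), or 0.28 as log2 fold change (standard error 0.07, 95% interval 0.080 to 0.48, adjusted p = 0.0794 by edgeR). For *Rrn3* and *Ubtf* the genotypes did not overlap, but the intervals end under the threshold of 1.5 times. *Polr1c* and *Polr1d* encode subunits that polymerase I shares with polymerase III, and their log2 fold changes were 0.48 and 0.35 (adjusted p = 0.0612 and 0.108 by edgeR). Scaled by library size alone, *Polr1c* passed with a log2 fold change of 0.70. Of 8 further polymerase I genes 7 were tested and 1 was called, with a median log2 fold change of 0.23. It was *Cd3eap*, the partner subunit of *Polr1e*, with WT counts of 354 and 317 and MYC-KI counts of 1007 and 1071 (log2 fold change 1.29, adjusted p = 0.0255 by edgeR). *Twistnb* (0.63) and *Taf1c* (0.59) came next and did not pass, and *Taf1b* was lowest at -0.18.

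All 6 nucleolar chaperones and regulators rose, with a median log2 fold change of 1.26. *Npm1* encodes nucleophosmin, a histone and ribosome chaperone that makes up much of the granular outer part of the nucleolus. It had 140.7 and 150.5 normalised CPM in WT (4721 and 4200 counts) and 428.2 and 427.4 in MYC-KI mice (14522 and 19091 counts), 2.94 times the WT mean. Its log2 fold change of 1.56 (standard error 0.09) had the lowest adjusted p-value of the 53 genes, 0.0102 by edgeR. *Ncl*, for nucleolin, which binds the nascent precursor, had 327.3 and 316.3 normalised CPM in WT (10984 and 8825 counts) and 841.3 and 726.6 in MYC-KI mice (28534 and 32456 counts), or 1.28 as log2 fold change (standard error 0.11, adjusted p = 0.0180 by edgeR). In MYC-KI mice *Ncl* and *Npm1* made up 25.2% of the summed normalised CPM of the 53 genes, against 19.7% in WT. Without these genes the sum of the other 51 was still 1.88 times that of WT. *Gnl3*, for nucleostemin, a nucleolar GTPase of dividing and stem cells, had 21.5 and 23.0 normalised CPM in WT (723 and 642 counts) and 62.4 and 48.2 in MYC-KI mice (2117 and 2152 counts), or 1.31 as log2 fold change (standard error 0.16, adjusted p = 0.0235 by edgeR). *Mybbp1a* (log2 fold change 1.23) and *Nolc1*, a chaperone of snoRNPs (1.10), also rose. *Npm3*, the short paralog of *Npm1*, had 17.8 and 13.9 normalised CPM in WT (598 and 387 counts) and 35.1 and 31.9 in MYC-KI mice (1192 and 1424 counts), or 1.08 as log2 fold change (standard error 0.17, adjusted p = 0.0336 by edgeR). Its pseudogene row *Npm3-ps1* had 0 counts in both WT samples and 18 and 19 in MYC-KI mice. Reads shared with processed copies cannot be told apart for *Npm1*, *Npm3* and other genes of this kind.

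**Figure D3:**
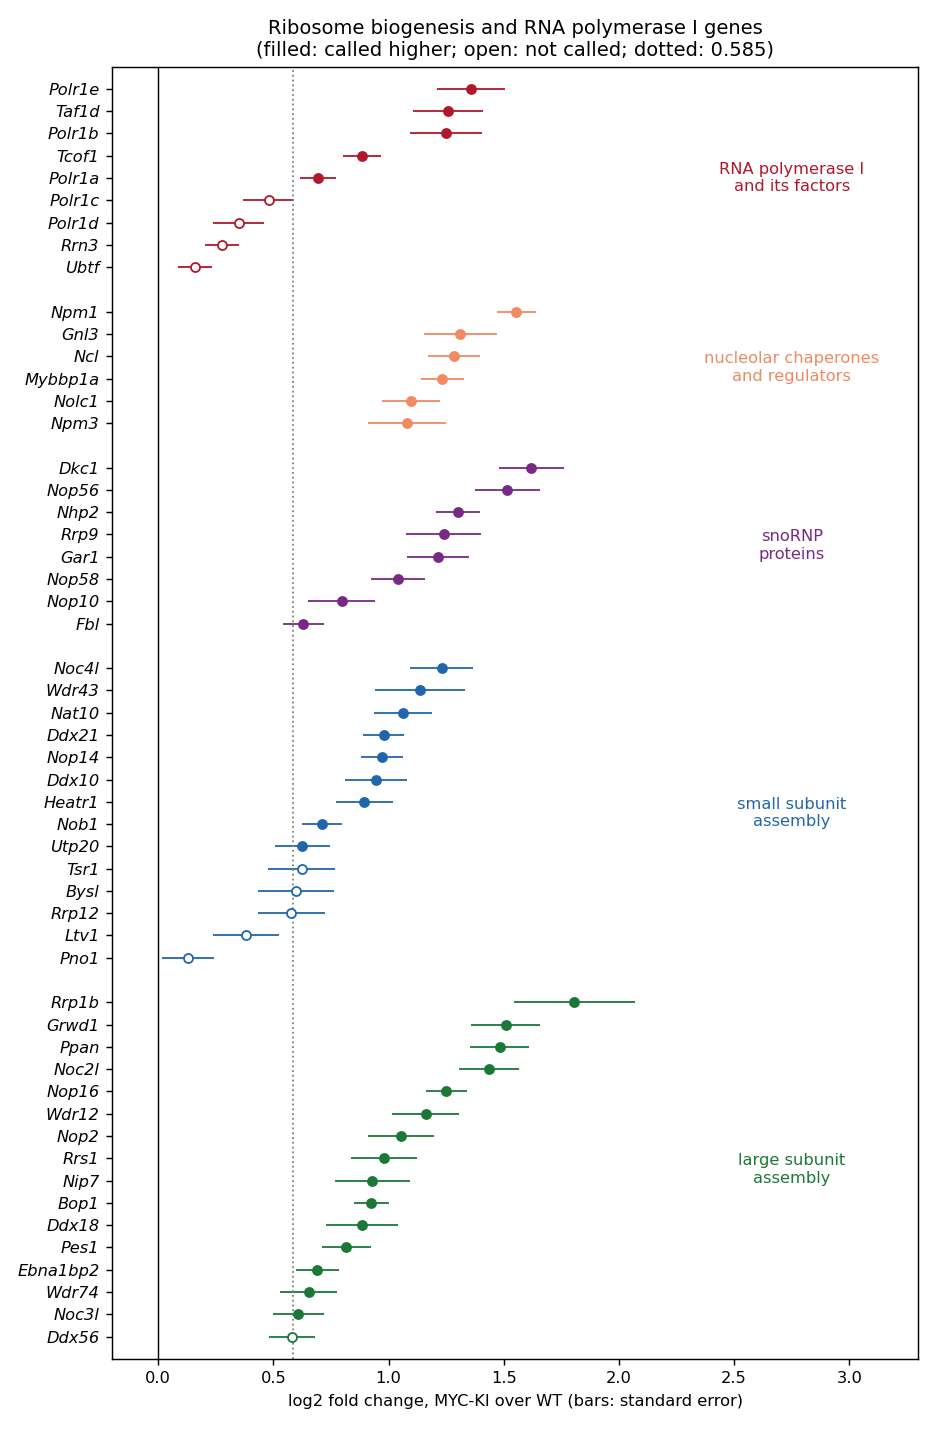
log2 fold change of each of the 53 genes in MYC-KI over WT mice (x axis), grouped by role (colours), with the standard error as bars. All 53 points lie above 0, the 43 filled ones were called higher, and the 10 open ones range from 0.13 for *Pno1* to 0.62 for *Tsr1*.

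The snoRNP proteins rose in 8 of 8 cases, with a median log2 fold change of 1.23. Those of the H/ACA class place pseudouridines, and *Dkc1* encodes their synthase, dyskerin. *Dkc1* is X-linked, and WT replicate 2, the sample with 17846 counts of *Xist*, had the higher of its WT levels. It had 22.5 and 26.2 normalised CPM in WT (754 and 730 counts) and 81.5 and 67.9 in MYC-KI mice (2765 and 3035 counts), 3.07 times the WT mean (log2 fold change 1.62, standard error 0.14, adjusted p = 0.0183 by edgeR). Of the partners of dyskerin, *Nhp2* rose by a log2 fold change of 1.30, *Gar1* by 1.21 and *Nop10* by 0.80. *Nop10* had 19.8 and 24.5 normalised CPM in WT and 39.6 and 37.2 in MYC-KI mice, and its 95% interval of 0.41 to 1.19 ends below that of *Dkc1*, which starts at 1.24, though the difference between these genes was not tested. In the C/D class, which places methyl groups on ribose, the scaffold gene *Nop56* had 40.6 and 39.6 normalised CPM in WT (1364 and 1104 counts) and 128.2 and 101.2 in MYC-KI mice (4348 and 4521 counts), or 1.52 as log2 fold change (standard error 0.14, adjusted p = 0.0188 by edgeR). *Nop58*, its partner, rose by 1.04. The methyltransferase gene *Fbl*, for fibrillarin, rose least of this role, with 30.1 and 30.9 normalised CPM in WT (1009 and 861 counts) and 48.1 and 46.2 in MYC-KI mice (1631 and 2064 counts), or 0.63 as log2 fold change (standard error 0.09, 95% interval 0.39 to 0.87, adjusted p = 0.0287 by edgeR). *Rrp9*, a protein of the U3 snoRNP needed for early cleavage, rose by 1.24.

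Genes of the same process outside the 53 were read in the same fit. Of 11 assembly factors of snoRNPs 4 were called higher and 0 lower, with a median log2 fold change of 0.56. They were *Naf1* (1.25) and *Shq1* (0.97), chaperones of dyskerin, and the helicase genes *Ruvbl2* (1.21) and *Ruvbl1* (0.68). snoRNAs themselves are cut from the introns of host genes, and 14 of 15 listed host genes were tested. Of these 10 were called higher and 0 lower, with a median of 1.46. *Gas5* counts were 903 and 588 in WT and 2768 and 2379 in MYC-KI mice, and *Snhg17* had 119 and 110 against 493 and 538 (log2 fold change 1.83, adjusted p = 0.0222 by edgeR). *Snhg11*, with WT counts of 86 and 46 and MYC-KI counts of 16 and 56, had the lowest value of the list, -1.28, and did not pass.

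Of 14 small subunit factors 9 rose, with a median log2 fold change of 0.80. *Noc4l* and *Nop14* encode partners in the early small subunit precursor. *Noc4l* had 19.1 and 19.9 normalised CPM in WT (642 and 556 counts) and 50.4 and 41.2 in MYC-KI mice (1709 and 1842 counts), or 1.23 as log2 fold change (standard error 0.14, adjusted p = 0.0219 by edgeR), and the value of *Nop14* was 0.97. *Wdr43* and *Heatr1*, needed for both transcription and early processing of the precursor, came to 1.14 and 0.89. *Wdr43* had 43.6 and 46.5 normalised CPM in WT (1463 and 1297 counts) and 116.7 and 81.1 in MYC-KI mice (3958 and 3624 counts), with a standard error of 0.20 and an adjusted p of 0.0383 by edgeR. Without MYC-KI replicate 1 its log2 fold change was 0.85. The acetyltransferase gene *Nat10* rose by 1.06, the helicase genes *Ddx21* and *Ddx10* by 0.98 and 0.95, and *Utp20* by 0.63. Other genes of this role act in later steps, up to the last cut in the cytoplasm. *Nob1*, the nuclease that makes the last cut, rose by 0.71. *Tsr1* (0.62), *Bysl* (0.60), *Rrp12* (0.58) and *Ltv1* (0.38) did not pass. DESeq2 called *Tsr1* and *Bysl* higher, with log2 fold changes of 0.61 and 0.59. *Pno1*, the partner of *Nob1*, had 50.4 and 42.5 normalised CPM in WT (1691 and 1185 counts) and 51.2 and 50.5 in MYC-KI mice (1738 and 2255 counts). Its log2 fold change of 0.13, with a standard error of 0.11, a 95% interval of -0.17 to 0.44 and an adjusted p of 0.472 by edgeR, was the lowest of the 53, and it was 0.011 without WT replicate 2 and 0.26 without WT replicate 1.

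Of 16 large subunit factors 15 rose, with a median log2 fold change of 0.95. *Rrp1b*, a nucleolar protein of the large subunit precursor, had the highest value of the 53 genes and the largest standard error. It had 14.8 and 18.4 normalised CPM in WT (498 and 513 counts) and 70.9 and 45.4 in MYC-KI mice (2403 and 2029 counts), 3.50 times the WT mean (log2 fold change 1.81, standard error 0.26, adjusted p = 0.0306 by edgeR). Without MYC-KI replicate 1 the value was 1.45, and without replicate 2 it was 2.09. *Grwd1*, a chaperone of a ribosomal protein and 1 of the genes with a printed E-box, had 14.5 and 14.5 normalised CPM in WT (485 and 404 counts) and 45.6 and 36.8 in MYC-KI mice (1548 and 1642 counts), or 1.51 as log2 fold change (standard error 0.15, adjusted p = 0.0198 by edgeR). *Ppan* (1.48), *Noc2l* (1.44) and *Nop16* (1.25) followed. Pes1, Bop1 and Wdr12 form a complex needed to process the large subunit precursor. *Bop1* had 53.6 and 50.7 normalised CPM in WT (1798 and 1414 counts) and 99.8 and 98.2 in MYC-KI mice (3384 and 4386 counts), or 0.92 as log2 fold change (standard error 0.08, adjusted p = 0.0176 by edgeR), *Pes1* rose by 0.82 and *Wdr12* by 1.16. The methyltransferase gene *Nop2* rose by 1.06, *Rrs1* by 0.98, *Nip7* by 0.93, the helicase gene *Ddx18* by 0.89, *Ebna1bp2* by 0.69, *Wdr74* by 0.65 and *Noc3l* by 0.61. The helicase gene *Ddx56* had 35.01 and 32.5 normalised CPM in WT (1175 and 907 counts) and 52.8 and 48.3 in MYC-KI mice (1789 and 2156 counts). Its adjusted p-value of 0.0376 by edgeR passed, and its log2 fold change of 0.58 (standard error 0.10) did not. *Ddx18*, *Noc3l* and *Nop10* lost their calls in each edgeR fit without 1 sample, and *Fbl*, *Nip7*, *Npm3*, *Utp20* and *Wdr74* in each except that without MYC-KI replicate 2.

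Of 93 other ribosome assembly factors, all tested, 42 were called higher and 0 lower by edgeR, with a median log2 fold change of 0.60. Those of the small subunit had 17 of 45 called and those of the large subunit 25 of 48. The highest values were those of *Lyar* (1.53), *Nle1* (1.45) and *Wdr55* (1.20). *Lyar*, for a nucleolar protein, had WT counts of 507 and 364 and MYC-KI counts of 1456 and 1721. *Pelp1* was lowest at -0.28, with 22 to 40 counts per sample. In the fits without a WT sample edgeR called 0 of the 93 and DESeq2 16 and 19. Among lists of neighbouring function, the RNA exosome, which trims precursor RNA, had 4 of 14 genes called higher, RNase MRP and P had 2 of 12, and RNA polymerase III had 4 of 11. DESeq2 called 8, 4 and 4 genes of these lists higher, and 12, 4 and 6 were higher at an unadjusted p-value under 0.05 by edgeR. Of 7 subunits particular to RNA polymerase II and 5 that all RNA polymerases share, 0 were called by edgeR in either direction. At an unadjusted p-value under 0.05, 2 and 3 of them were higher and 0 lower, and DESeq2 called 1 of each list higher. *Polr2e* (log2 fold change 0.44) had an adjusted p-value under 0.05 by edgeR. The median log2 fold change was 0.20 for polymerase II, 0.32 for polymerase III and 0.71 for the exosome. No difference between these lists was tested.

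**Figure D4:**
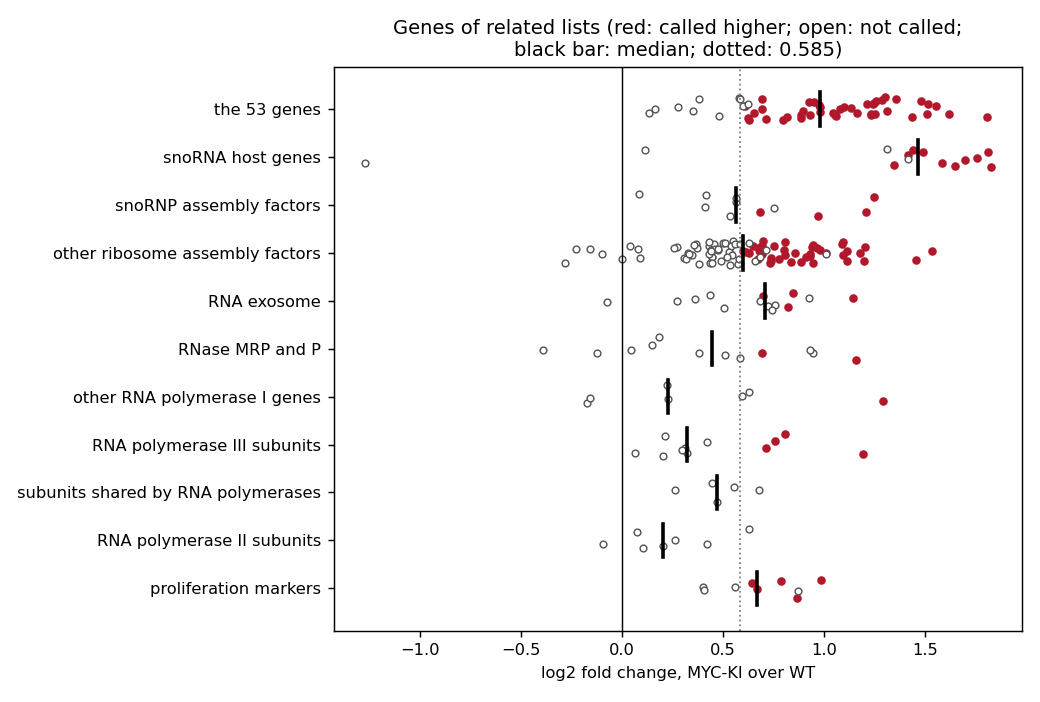
log2 fold change in MYC-KI over WT mice (x axis) of each tested gene in the 53 genes and in 10 related lists (y axis), with the median as a black bar. The median is 0.98 for the 53 genes and 1.46 for snoRNA host genes, and it is 0.20 for RNA polymerase II subunits, of which edgeR called 0.

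Levels of different genes were ranked per length, as normalised CPM per kilobase of annotated exon. On this scale *Npm1* was first in both genotypes, with 71.7 in WT and 210.6 in MYC-KI mice, followed by *Ncl* (39.2 and 95.6) and *Nhp2* (32.8 and 80.8). *Pno1* had rank 4 in WT (30.1) and rank 16 in MYC-KI mice (32.9), while *Nop56* moved from rank 12 (21.0) to rank 4 (60.2) and *Noc2l* from rank 21 (17.0) to rank 7 (45.8). *Wdr12* and *Polr1e* had the lowest levels per kilobase in both genotypes, at 1.30 and 2.54 in WT. The length merges the exons of all annotated transcripts, and it was 10613 bases for *Wdr12* and 3446 for *Polr1e*. Before this scaling *Wdr12* was above *Polr1e* in WT, at 13.8 and 8.74 normalised CPM, so ranks per kilobase depend on the annotated length. Across the 53 genes Spearman's rho between the log2 fold change and the average log2 CPM was -0.04, over genes that share the same 4 libraries. This average was not scaled by length.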

How the data were processed

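The authors deposited 1 table of raw counts per gene symbol, 1 column per sample. The submitters' processing notes name HISAT2 and mm10, and the counting tool and its use of strand are not given in the sources used here. The design text speaks of triplicates, and 2 samples per genotype were analysed here. The MYC-KI columns were given, row by row, the names in character code order, and the WT columns stayed as deposited. Genes were fitted in R 4.3.3 with edgeR 4.0.16 (filterByExpr, TMM normalization, glmQLFit and glmQLFTest without covariates, Benjamini-Hochberg adjustment over 17643 genes). Standard errors were taken from the size of the log2 fold change and the square root of its F. Alternatives used DESeq2 1.42.0, other scalings and filters, the replicate number as a block, the deposited order and 3 of the 4 samples. The labels do not say more of the replicates than that they are separate samples, so p-values measure the spread between these samples only. Replicates differed by more than counting noise (chi-square per degree of freedom 31.1 in WT and 105.9 in MYC-KI). On simulated counts of this comparison, edgeR recovered 88 of 100 genes set to a log2 change of 2 and 6 of 100 set to 1, with 5 false calls among 17685 genes.

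The 53 genes and all lists were chosen with earlier results of these data known. All 53 are named, by role. Values per sample are given for *Polr1a*, *Polr1b*, *Rrn3*, *Ubtf*, *Tcof1*, *Ncl*, *Npm1*, *Fbl*, *Dkc1*, *Nop56* and *Bop1*, and for the 2 highest and the lowest log2 fold changes of each role. Of the other assembly factors and polymerase I genes, the 3 highest and the lowest are named. Other genes were named after their values were seen. Exon lengths are merged exons of the GENCODE M21 basic annotation. Protein sequences were not analysed here.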

Additional observations from a re-analysis of the deposited data

How the results depend on the processing

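The log2 fold change of all 53 genes kept its sign under every alternative run except the deposited row order. The number of the 53 called higher lay between 43 and 48 with DESeq2, with the size factors of DESeq2 in edgeR, with library size alone, with no filter and with at least 10 counts in every sample. It was 25 at an absolute log2 fold change above 1. With library size alone the median over all genes moved from 0.012 to 0.24 and that of the 53 to 1.20, and 71 other assembly factors and 2272 genes in all were called higher, against 42 and 996, and 739 lower, against 896. With DESeq2, 1500 genes were called higher and 1730 lower (996 and 896 by edgeR). Above 1, 11 other assembly factors and 464 genes were called higher, and 649 genes lower.

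With the replicate number as a block, 2 of the 53 genes were called higher (*Npm1* and *Nhp2*), 0 other assembly factors, and 27 genes in all higher and 87 lower. At an unadjusted p-value under 0.05 the blocked fit had 51 of the 53 higher, beside 5178 of 17643 genes in either direction. Differences between replicates 1 and 2 correlated between genotypes at r = 0.065 over 16244 genes. With a single difference per genotype, this value cannot show whether samples of the same number share more than that number.

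Without 1 sample in turn, by edgeR, between 0 and 42 of the 53 genes were called higher, with medians of 0.87 to 1.10. For other assembly factors the range was 0 to 44, for all genes higher 0 to 1064 and for all genes lower 0 to 1406. The ranges with DESeq2 were 31 to 46 of the 53 genes, 16 to 48 other assembly factors (19 without WT replicate 2), and 525 to 1207 genes higher (545 without WT replicate 1) and 524 to 1848 lower (1365 without MYC-KI replicate 1). A lone sample is assumed to vary like the other genotype. The DESeq2 fits without a sample and the fit of rows that do not move were added after the data were seen.

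In the deposited order 22 of the 53 genes were called higher and 17 lower (median 0.32), 30 other assembly factors higher and 50 lower, and 9422 genes higher and 9158 lower in all. There 23 of the 53 changed sign, which the order's own construction brings, since those counts belong to other names after re-sorting. The log2 fold changes were -0.42 for *Polr1a*, -1.89 for *Polr1d*, -5.46 for *Rrn3*, -15.08 for *Ubtf*, -2.06 for *Npm1*, -1.79 for *Mybbp1a*, -2.12 for *Nop58*, -4.31 for *Nhp2*, -1.23 for *Rrp9*, -13.40 for *Utp20*, -1.03 for *Wdr43*, -0.20 for *Noc4l*, -5.86 for *Bysl*, -6.31 for *Pno1*, -1.39 for *Ddx21*, -2.12 for *Tsr1*, -1.99 for *Bop1*, -1.75 for *Pes1*, -0.43 for *Wdr74*, -0.10 for *Ddx56*, -0.024 for *Noc2l*, -12.38 for *Ppan*, -11.95 for *Grwd1*. In the re-sorted table, but not in the deposited order, each of the 53 genes had at least 259 counts in every sample.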

Other observations

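Summed levels of further marker lists were read in the same fit. Surface mucous markers, of which 4 of 4 were called lower in MYC-KI mice, had sums of 44890 and 53560 normalised CPM in WT and 10960 and 17190 in MYC-KI mice. Mucous neck markers (*Muc6* and *Tff2*) summed to 9863 and 12190 in WT and to 19710 and 8667 in MYC-KI mice. Of 5 leukocyte markers 2 were called lower, *Csf1r* and *Itgam*, with sums of 88.5 and 101.3 in WT and 51.0 and 38.0 in MYC-KI mice. The pancreatic acinar markers *Cpa1* and *Prss1* had 0 counts in every sample, and *Cela1* was the only one of 5 tested there (log2 fold change -0.76). Ribosomal RNA itself (*Rn45s* and *n-R5s*) was not analysed here, and the 53 genes give no measure of ribosomal DNA transcription.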
